A study of Homo sapiens with 12 samples.

Results

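The apolipoprotein L (APOL) genes form a small family on human chromosome 22. The label of the family as kidney risk genes comes from APOL1, since inherited coding changes in APOL1 are tied to chronic kidney disease. The members described here are APOL1, APOL2, APOL3, APOL4 and APOL6, 5 of the 23106 gene symbols in the count files, chosen by their symbols. They were picked with earlier results of these same libraries known. Their levels, fold changes and adjusted p values are therefore a description and are not independent support for any pattern. Of the 5 members, 4 had enough counts to be tested among 13000 genes, and APOL4 did not.

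APOL1 is the secreted member. It circulates on dense lipoprotein particles and lyses trypanosome parasites by forming ion channels in their membranes, and kidney cells, among them podocytes, also make it. The other family members lack the secretion signal and stay inside the cell, where APOL3 has been tied to the Golgi and to the killing of bacteria, and APOL6 to cell death. The genes are known as targets of interferon and of inflammatory cytokines, and lie close together on one side of MYH9, a gene of non-muscle myosin long considered in kidney disease.

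The libraries are bulk RNA-seq of RCC4, an established human clear cell renal cell carcinoma line without functional VHL. VHL normally marks the hypoxia-inducible factor (HIF) alpha subunits for degradation, so both HIF-1 and HIF-2 are active in RCC4 at normal oxygen. RNA was taken 48 h after transfection with siRNA at a total of 2 nM in every dish. The control group received 2 nM control siRNA. The HIF1A siRNA group received 1 nM siRNA against HIF1A and 1 nM control siRNA, and the HIF2A siRNA group received 1 nM siRNA against HIF2A and 1 nM control siRNA. The double knockdown received 1 nM of each HIF siRNA and no control siRNA. HIF2A is the gene EPAS1. Each of the 4 groups had 3 replicates, which gives 12 libraries from 1 cell line, and the study pairs the groups by replicate number. All values of a comparison thus come from the same line, and the p values measure the spread between these replicates.

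Total counts lay between 13263168 and 20451433 per library, and a floor of 3 counts corresponded to 0.146 to 0.226 CPM, the count scaled to the library total with edgeR. HIF1A was at 12.5 to 30.6% of the paired control library with HIF1A siRNA and at 20.1 to 55.3% in the double knockdown. Both upper values were those of replicate 2, whose control library had HIF1A at 58.2 CPM, beside 120 and 112 CPM in replicates 1 and 3. HIF1A stood at 24.2 to 32.2 CPM in the double knockdown. The fit put it at 19.1% of control with HIF1A siRNA and at 30.1% in the double knockdown. EPAS1 was at 5.46 to 8.60% with HIF2A siRNA and at 4.10 to 8.16% in the double knockdown, and at 62.2 to 78.5% with HIF1A siRNA (adjusted p = 0.25). HIF1A was higher in the double knockdown than with HIF1A siRNA in 3 of 3 pairs (log2 fold change 0.66 ± 0.21 (SE), adjusted p = 0.18). The renal markers were present, PAX8 at 197 to 315 CPM and KRT8 at 366 to 570 CPM. PECAM1 of endothelium and PTPRC and CD3E of immune cells had 0 counts in all 12 libraries, while CD68 of macrophages and COL1A1 of fibroblasts reached 32.6 to 65.1 and 16.6 to 71.1 CPM. In bulk RNA, fewer cells of a type and less RNA per cell cannot be told apart.

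APOL1 and APOL2 were the abundant family members in RCC4. Per kilobase of the canonical transcript, APOL1 stood at 99.4 ± 4.03 CPM with control siRNA (SD, n = 3) and APOL2 at 53.9 ± 9.27. APOL6 followed at 8.995 ± 2.049 and APOL3 at 5.23 ± 1.20 CPM per kilobase. The ranges of neighbours in this order did not overlap in the control libraries, where APOL3 reached 6.40 and APOL6 began at 7.06. Among 11695 tested genes with a known transcript length, APOL1 ranked 748 and APOL2 1465 in the control group, so that 93.6 and 87.5% of genes lay lower. APOL6 ranked 5757 and APOL3 7186. The order was the same with the summed length of all exons in place of the canonical transcript, which gave 80.3, 38.3, 8.995 and 1.81 CPM per kilobase for APOL1, APOL2, APOL6 and APOL3.

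APOL4 was at or near the floor everywhere. It had 4 counts in replicate 3 of the control group and 4 counts in replicate 1 of the double knockdown, and 0 in the other 10 libraries. APOL5, the remaining human family gene, had 1 count in each of 2 libraries and 0 elsewhere. Neither gene could be compared between groups at this depth, and 0 counts here allow a level of up to 0.146 to 0.226 CPM.

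The members do not share read-length stretches of sequence. No stretch of the read length stated in the methods, taken from the canonical transcript of any member, occurred in the transcripts of another member, and no other gene in the files overlapped their exons. Along chromosome 22 the order in the RefSeq table (GRCh38.p14) was APOL6, APOL5, RBFOX2, APOL3, APOL4, APOL2, APOL1 and MYH9. APOL1, APOL5 and APOL6 are on the plus strand, and APOL2, APOL3 and APOL4 on the minus strand.

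**Figure D1:**
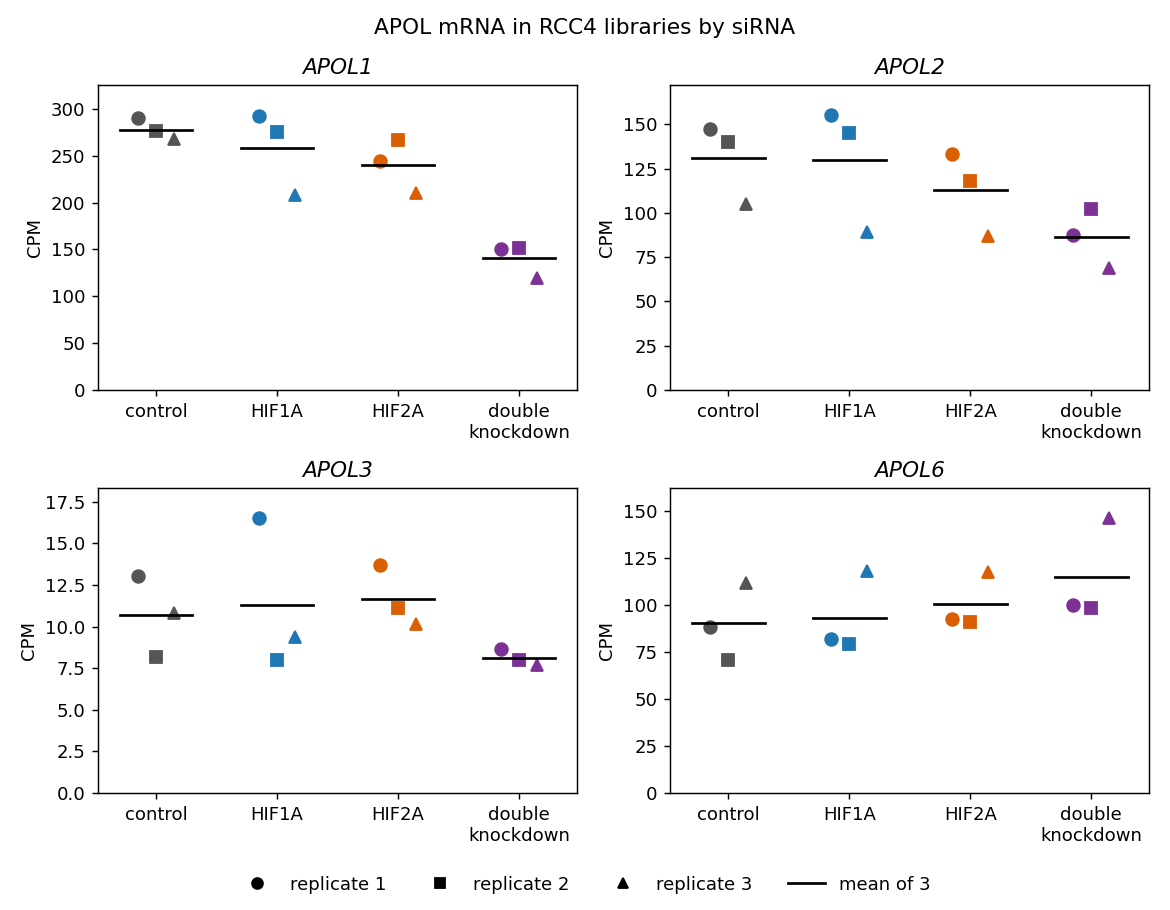
APOL levels in the 12 libraries, as CPM on linear axes that start at 0, for the control siRNA, HIF1A siRNA, HIF2A siRNA and double knockdown groups. Points are libraries with their shape giving the replicate number, and bars are means of 3. APOL1 lies at 119 to 151 CPM in the double knockdown against 267 to 290 CPM with control siRNA, and replicate 3 is the lowest APOL1 and the highest APOL6 value of every group.

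The single siRNAs addressed whether HIF-1 or HIF-2 alone sets the level of the APOL genes. APOL1 stood at 290, 276 and 267 CPM in the control libraries of replicates 1, 2 and 3. With HIF1A siRNA it stood at 293, 275 and 208 CPM. Replicates 1 and 2 were at 101 and 99.7% of their paired controls, and replicate 3 was at 77.6%. The ranges overlapped, and the log2 fold change was -0.12 ± 0.10 (SE, adjusted p = 0.84).

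With HIF2A siRNA, APOL1 stood at 244, 267 and 211 CPM, or 84.3, 96.6 and 78.8% of the paired control libraries. All 3 libraries were below all 3 control libraries, although replicate 2, at 266.6 CPM, was next to the lowest control library at 267.3 CPM. The log2 fold change was -0.22 ± 0.10 (95% interval -0.43 to 0.00), with an unadjusted p of 0.052 and an adjusted p of 0.76. Of all 13000 genes, 2.86% had HIF2A siRNA ranges wholly below the control range.

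APOL2 did not pass the test under either siRNA. It stood at 148, 140 and 105 CPM with control siRNA, at 155, 145 and 89.4 CPM with HIF1A siRNA and at 133, 118 and 87.2 CPM with HIF2A siRNA. The ranges overlapped in both comparisons. The log2 fold changes were -0.03 ± 0.11 (adjusted p = 0.97) and -0.22 ± 0.11 (adjusted p = 0.76).

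APOL3 and APOL6 behaved likewise. APOL3 was at 13.1, 8.18 and 10.8 CPM with control siRNA, 16.5, 7.98 and 9.39 CPM with HIF1A siRNA and 13.7, 11.1 and 10.2 CPM with HIF2A siRNA. APOL6 was at 88.4, 71.0 and 112 CPM with control siRNA, 82.0, 79.2 and 118 CPM with HIF1A siRNA and 92.8, 90.9 and 118 CPM with HIF2A siRNA. The groups overlapped for both genes, and the fitted log2 fold changes ran from 0.04 to 0.16 with adjusted p values from 0.80 to 0.97.

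Thus 0 of the 4 tested members passed an adjusted p of 0.05 with HIF1A siRNA, where 1.41% of all genes did, and 0 of 4 with HIF2A siRNA, where 0.2% did. No member had an unadjusted p under 0.05 in these comparisons, and DESeq2 called none. With background shares this low, a count of 0 among 4 genes says little about the family. The direct comparison of HIF1A siRNA with HIF2A siRNA, in which 2% of all genes passed, gave 0 of 4 members by edgeR, by its unadjusted p and by DESeq2. Its log2 fold changes were 0.10 for APOL1, 0.19 for APOL2, -0.09 for APOL3 and -0.12 for APOL6.

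In the double knockdown, APOL1 was at about 50.2% of its control level in the fit. It stood at 151, 151 and 119 CPM, which is 52.0, 54.8 and 44.6% of the paired control libraries. Every double knockdown library lay below every other library in the study, the next being replicate 3 of HIF1A siRNA at 208 CPM. The log2 fold change against control siRNA was -0.995 ± 0.10 (95% interval -1.22 to -0.77, adjusted p = 1.1e-05, edgeR with the replicate number as a block).

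APOL2 moved the same way by a smaller amount. It stood at 87.3, 102 and 69.0 CPM in the double knockdown, or 59.2, 73.1 and 65.6% of the paired controls. The 3 libraries lay just below the control range, which began at 105 CPM. The log2 fold change was -0.60 ± 0.11 (95% interval -0.84 to -0.37, adjusted p = 0.0022). Without replicate 3 the adjusted p was 0.090.

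APOL3, the scarcest of the tested members, stood at 8.64, 7.97 and 7.69 CPM in the double knockdown. It was lower than the paired control in 3 of 3 pairs, at 66.2, 97.5 and 71.3%, but the ranges overlapped. The log2 fold change of -0.38 ± 0.20 did not pass the test (adjusted p = 0.27), with counts of 106 to 171 behind these values.

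APOL6 went the other way. It stood at 100.06, 98.8 and 147 CPM in the double knockdown, or 113, 139 and 131% of the paired controls. It was higher in 3 of 3 pairs, yet the ranges of the groups overlapped. The log2 fold change was 0.35 ± 0.10 (adjusted p = 0.043). This call held in 5 of 20 alternatives, in which the log2 fold change ran from 0.28 to 0.42 and the adjusted p from 0.013 to 0.70. It was lost without replicate 1, 2 or 3 (adjusted p = 0.11, 0.11 and 0.38), and without any single library but replicate 1 of control siRNA and replicate 2 of HIF2A siRNA, with adjusted p values up to 0.17, the value without replicate 3 of the double knockdown.

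In all, 3 of the 4 tested members passed against control siRNA, 2 lower and 1 higher, where 10.4% of all genes passed, 6.46% lower and 3.91% higher. The ranges of APOL1 and APOL2 lay wholly below the control range, as did those of 8.55% of all genes. The median log2 fold change of the 4 members was -0.49 and that of all genes 0.00. Since the members were chosen with these values known, nothing is read from these counts. These calls depended on the pairing of replicates. Without the replicate block 1 of 4 members passed, APOL1 at -0.98 (adjusted p = 0.011), while APOL2 kept a log2 fold change of -0.60 (adjusted p = 0.37) and APOL6 of 0.35 (adjusted p = 0.70), and 1.49% of all genes passed.

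**Figure D2:**
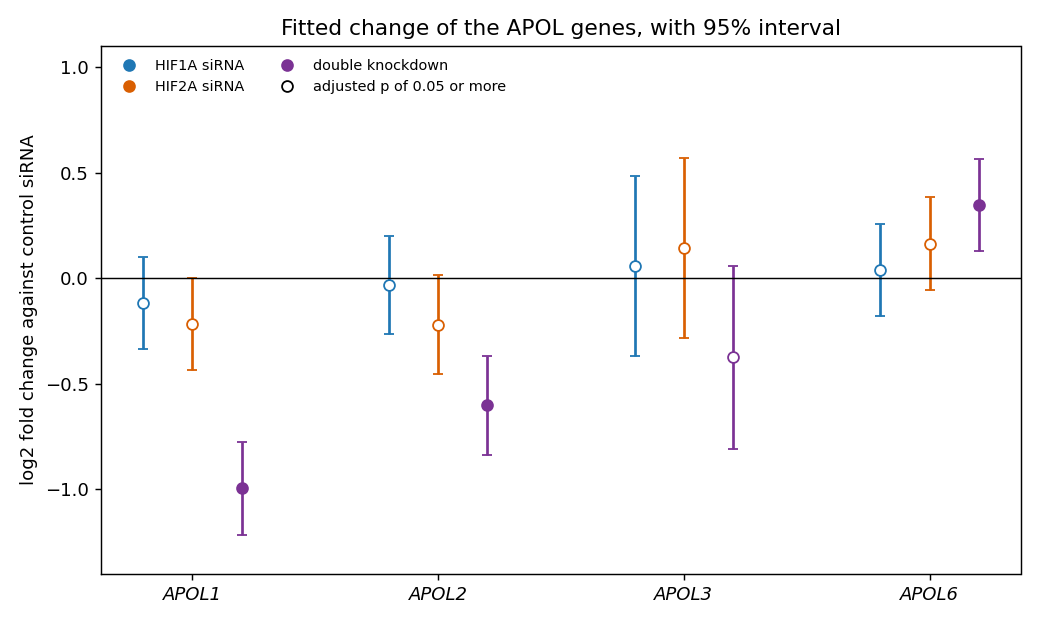
Fitted log2 fold changes of the 4 tested APOL genes against control siRNA, with 95% intervals, for HIF1A siRNA, HIF2A siRNA and the double knockdown. Filled points have an adjusted p under 0.05. The 3 filled points are those of APOL1 (-0.995), APOL2 (-0.60) and APOL6 (0.35) in the double knockdown.

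Comparisons of the double knockdown with each single siRNA asked whether the loss of the other HIF alpha subunit mattered. The single siRNA dishes held 1 nM control siRNA that the double knockdown dishes did not. Against HIF1A siRNA, APOL1 was lower by -0.88 ± 0.10 on the log2 scale (adjusted p = 0.00020) and APOL2 by -0.57 ± 0.11 (adjusted p = 0.015). APOL3 was at -0.43 ± 0.20 (adjusted p = 0.41) and APOL6 at 0.31 ± 0.10 (adjusted p = 0.20). Thus 2 of 4 members passed, where 1.46% of all genes did. The APOL2 call against HIF1A siRNA was lost in 7 of 20 alternatives. Among them, its adjusted p was 0.21 without replicate 1, 0.27 without replicate 3, 0.10 without replicate 1 or 2 of HIF1A siRNA, and 0.17 and 0.069 without replicate 1 and 3 of the double knockdown.

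Against HIF2A siRNA, APOL1 was lower by -0.78 ± 0.10 (adjusted p = 0.00022). APOL2 was at -0.38 ± 0.11 (adjusted p = 0.067), APOL3 at -0.52 ± 0.20 (adjusted p = 0.19) and APOL6 at 0.18 ± 0.10 (adjusted p = 0.38). Thus 1 of 4 members passed, where 4.17% of all genes did. APOL2 passed without replicate 2 (adjusted p = 0.043) and without replicate 2 of HIF2A siRNA alone (adjusted p = 0.038). Without the replicate block, no member passed in either comparison, and APOL1 then had adjusted p values of 0.11 against HIF1A siRNA and 0.064 against HIF2A siRNA. Of all genes, 0.0615% passed against HIF1A siRNA and 0.685% against HIF2A siRNA in that setting, so the absence of calls says little about the members.

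The interaction asked whether the effect of both siRNAs together differed from the sum of the single effects on the log2 scale. For APOL1, whose log2 fold changes were -0.12 and -0.22 with the single siRNAs and -0.995 with both, the interaction was -0.66 ± 0.15 (unadjusted p = 0.00037, adjusted p = 0.48). The values were -0.35 ± 0.16 for APOL2, -0.57 ± 0.29 for APOL3 and 0.14 ± 0.15 for APOL6. No gene of the 13000 passed the adjusted threshold by edgeR (0%), and 311 had an unadjusted p under 0.05. DESeq2 called 11 genes for the interaction, APOL1 among them at -0.67 (adjusted p = 0.028). The interaction of APOL1 thus passed by DESeq2 and not by edgeR.

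For each tested member at least 1 position in the order of the replicates was the same across the groups. Replicate 3 was the lowest library of its group in 4 of 4 groups for both APOL1 and APOL2, and the highest in 4 of 4 for APOL6. Replicate 2 was the lowest in 4 of 4 groups for APOL6, and replicate 1 the highest in 4 of 4 for APOL3. This was common in the data, since 1 replicate number was the lowest in 4 of 4 groups for 27.9% of the 13000 genes and the highest for 31.2%. At least 1 of these 2 positions was fixed in this way for 51.6% of the genes. The labels do not say what a replicate number stands for beyond the biological replicate. What sets these positions was not tested.

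The makeup of the family counts, which were not scaled to transcript length here, also shifted in the double knockdown. The summed level of the 5 members was 509.9 ± 24.9 CPM with control siRNA, 493 ± 62.2 with HIF1A siRNA, 466 ± 34.3 with HIF2A siRNA and 349.9 ± 9.10 CPM in the double knockdown (SD, n = 3). APOL1 made up 54.5 ± 1.101% of these counts in the control group and 40.1 ± 4.62% in the double knockdown. The share of APOL6 was 17.8 ± 4.30% and 33.0 ± 8.50%. The share of APOL2 differed by less than its spread, with 25.6 ± 3.83% in the control group and 24.6 ± 4.15% in the double knockdown.

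Ratios taken within a library set APOL1 directly against each paralog, without the scaling between libraries. APOL1 had 2.16 times the CPM of APOL2 in the control libraries (range 1.96 to 2.54) and 1.64 times in the double knockdown (1.48 to 1.73). The mean log2 change over the 3 pairs was -0.39 ± 0.19 (SD), with single pairs at -0.19, -0.42 and -0.56. APOL1 was thus lower relative to APOL2 in 3 of 3 pairs, and the ranges did not overlap.

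Relative to APOL6, the ratio of APOL1 went from 3.18 (2.38 to 3.89) to 1.28 (0.813 to 1.53). The 3 pairs changed by -1.12, -1.34 and -1.55 on the log2 scale, a mean of -1.33 ± 0.21. In replicate 3 of the double knockdown APOL6 exceeded APOL1 in CPM, the only library in which it did. Per kilobase of the canonical transcript APOL1 stayed higher in the double knockdown, at 42.7 CPM or more against 14.6 CPM or less for APOL6. Relative to APOL3 the ratio went from 26.9 (22.2 to 33.8) to 17.3 (15.5 to 19.0), with a mean log2 change of -0.63 ± 0.24.

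With the single siRNAs the ratios moved less. Under HIF1A siRNA the mean log2 changes were -0.08 ± 0.04 against APOL2, -0.15 ± 0.17 against APOL3 and -0.16 ± 0.28 against APOL6. Under HIF2A siRNA they were 0.01 ± 0.16, -0.35 ± 0.11 and -0.38 ± 0.06, respectively. Against APOL2 the HIF2A siRNA change was thus smaller than its spread over the pairs. These ratios carry no test, as the genes were chosen on these libraries.

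**Figure D3:**
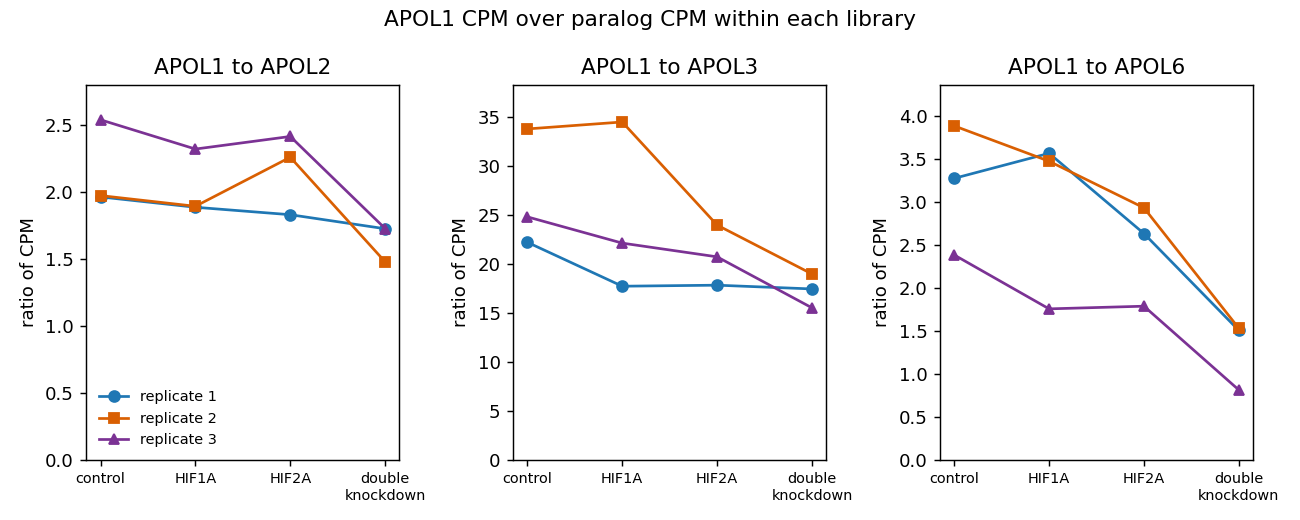
CPM of APOL1 divided by the CPM of APOL2, APOL3 and APOL6 within each library, on linear axes that start at 0, with lines joining the libraries of 1 replicate number across the 4 groups. All 3 lines end lower in the double knockdown than in the control group in each panel, and replicate 3 ends at 0.813 for APOL6.

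Genes with the pattern nearest to that of APOL1 were looked up across the whole table. The measure was the root mean square difference in log2 CPM over the 12 libraries, after removal of the mean of each replicate number, so that a smaller value is a closer pattern. Of 12999 other genes, PLIN2, which encodes a coat protein of lipid droplets, was nearest at 0.130. NEFL, a neurofilament gene, followed at 0.132, then FGF1, a growth factor gene, at 0.147, the receptor gene GPR161 at 0.151 and PPARD, a lipid-sensing nuclear receptor gene, at 0.152. Their log2 fold changes in the double knockdown were -1.07, -0.93, -1.09, -0.67 and -0.85. Since the genes were picked on these same libraries, likeness to APOL1 in these values was built in. With HIF1A siRNA the log2 fold changes were -0.20, -0.34, -0.39, -0.11 and -0.29, and with HIF2A siRNA they were -0.47, -0.18, -0.46, -0.10 and -0.41.

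By the same measure APOL2 ranked 32 of 12999 at 0.183 and APOL3 404 at 0.268. APOL6 ranked 9907 at 0.527, which is further from APOL1 than most genes. The distance also depends on how much a gene moves at all. The root mean square of the pattern itself was 0.395 for APOL1, 0.254 for APOL2, 0.241 for APOL3 and 0.148 for APOL6.

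Interferon is the best known inducer of the family, and its signalling genes showed no shared direction in the double knockdown. The list of 26 genes held receptors, kinases and transcription factors, and also RNA sensors and a feedback inhibitor. Of these genes 25 were tested, and none passed with either single siRNA by edgeR or DESeq2, with 2 and 1 at an unadjusted p under 0.05. Between HIF1A and HIF2A siRNA the list median was a log2 fold change of 0.27, beside -0.0002 for all genes. None of the list passed there by edgeR or DESeq2, with 9 of 25 at an unadjusted p under 0.05 (1570 of the 13000 genes). In the double knockdown 2 were lower and 2 higher, 16% of those tested beside 10.4% of all genes, with a median log2 fold change of -0.01. TLR3, a sensor of double-stranded RNA, was at -0.85 ± 0.16 (adjusted p = 0.0030), with a level of 16.4 ± 2.18 CPM with control siRNA and 9.08 ± 0.658 CPM in the double knockdown. DDX58, the RNA sensor RIG-I, was at -0.46 (adjusted p = 0.0485). IFNGR1, a chain of the interferon gamma receptor, was higher by 0.87 ± 0.15 (adjusted p = 0.0016), and SOCS3, a feedback inhibitor of cytokine signalling, by 0.69 ± 0.20 (adjusted p = 0.043). The IFNGR1 call held in 18 of 20 alternatives, TLR3 in 17, SOCS3 in 9 and DDX58 in 5. None of the 25 passed without the replicate block or without replicate 3, 1 passed without replicate 1, and 2 passed without replicate 3 of control, HIF1A or HIF2A siRNA or without any single library of the double knockdown.

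Classic interferon-stimulated genes, which share inducers with the APOL family, gave calls for 2 genes. Of 34 listed, 30 were tested, and none passed with a single siRNA by edgeR, although 3 (HIF1A siRNA) and 1 (HIF2A siRNA) had an unadjusted p under 0.05 and DESeq2 called 1 and 0. In the double knockdown 2 passed, both lower, or 6.67% of those tested beside 10.4% of all genes (6.46% lower). The count was thus near the share of all genes, and nothing is read from it. GBP1, an interferon-induced GTPase gene, went from 74.8 ± 23.7 to 48.4 ± 6.31 CPM (log2 fold change -0.58 ± 0.15, adjusted p = 0.022). SAMD9, an antiviral gene, went from 24.9 ± 5.35 to 16.8 ± 4.17 CPM (-0.57 ± 0.14, adjusted p = 0.013). The median log2 fold change was 0.02, but it ran from -0.19 without replicate 2 of the double knockdown to 0.27 without replicate 1 of the double knockdown. None passed without the replicate block, without replicate 1 or without replicate 3, while 6 passed without replicate 2. With any single library of the control or double knockdown groups left out, 1 gene passed. Without replicate 1 of the double knockdown neither GBP1 nor SAMD9 passed, and the 1 call was a higher gene.

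The NF-kappaB pathway is another route by which inflammatory cytokines act on the family. Of 20 listed genes, 18 were tested, and none passed with a single siRNA by edgeR. At an unadjusted p under 0.05 the counts were 2 and 7 for the HIF1A and HIF2A siRNAs, and DESeq2 called 1 in each. In the double knockdown 6 were lower and 2 higher, 44.4% of those tested beside 10.4% of all genes (6.46% lower and 3.91% higher), with a median log2 fold change of -0.23. This list, like the others, was chosen with earlier results of these libraries known, so nothing is read from its share. Lower were TNFAIP3, a feedback inhibitor of the pathway (129 ± 33.6 to 76.3 ± 19.2 CPM, log2 fold change -0.75, adjusted p = 0.0011), and BIRC3, a ubiquitin ligase gene (421 ± 88.4 to 262 ± 21.9 CPM, -0.68, adjusted p = 0.0024). ICAM1, an adhesion receptor gene, went from 241 ± 35.0 to 166 ± 30.0 CPM (-0.55, adjusted p = 0.0046), and the inhibitor gene NFKBIE was at -0.61 (adjusted p = 0.017). TNFAIP2, a gene induced by tumor necrosis factor, was higher at 0.42 (adjusted p = 0.016).

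These NF-kappaB counts changed with the pairing and with single libraries. The TNFAIP3 call held in 19 of 20 alternatives, BIRC3 and ICAM1 in 17, NFKBIE in 14 and TNFAIP2 in 13. Among the called genes not named here, the least stable call held in 3 of 20. No gene of the list passed without the replicate block, 1 passed without replicate 3, 4 without replicate 1 and 5 without replicate 2. Leaving out 1 library gave 2 without replicate 3 of control siRNA, 5 without replicate 2 of control siRNA, and 5, 4 and 3 without replicates 1, 2 and 3 of the double knockdown. The median stayed between -0.30 and -0.20 in all 20 alternatives.

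**Figure D4:**
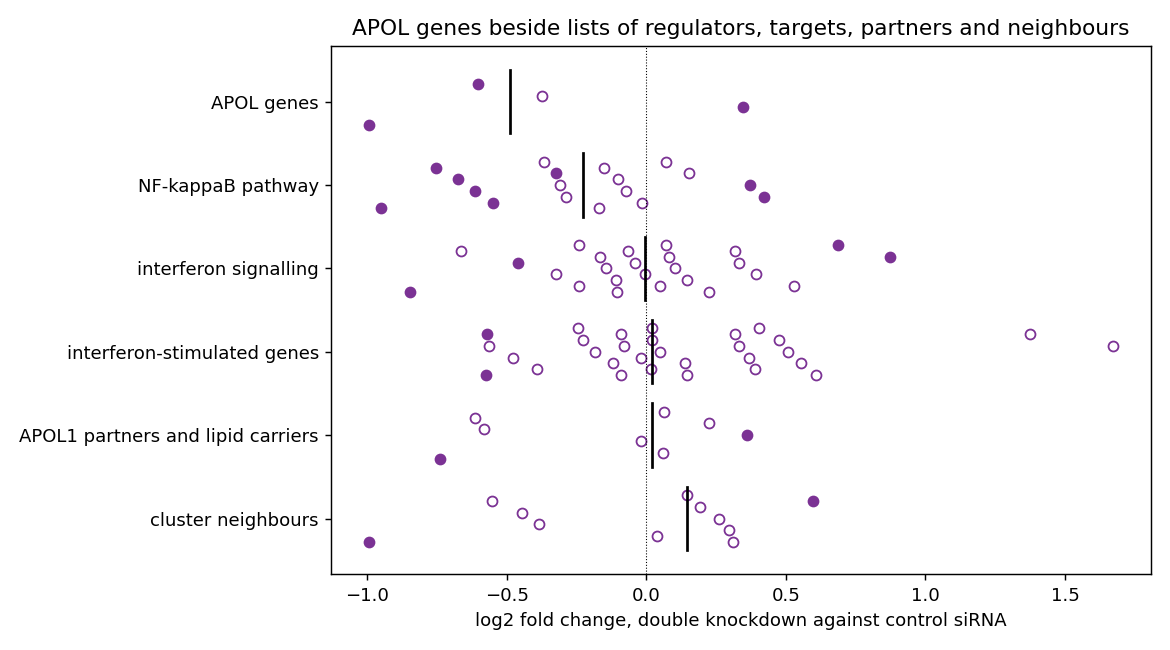
Log2 fold changes between double knockdown and control libraries for the APOL genes and 5 gene lists, 1 point per tested gene, filled where the adjusted p is under 0.05. Vertical bars are list medians, which lie at -0.49 for the APOL genes, -0.23 for the NF-kappaB pathway and within 0.15 of 0 for the other lists. Vertical offsets within a list only separate the points.

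Genes of the proteins that APOL1 is known to work with were also listed. Of 12 listed binding partners and lipid carriers, 8 were tested, and none passed with a single siRNA by edgeR or DESeq2, with 1 at an unadjusted p under 0.05 in each. In the double knockdown 1 was lower and 1 higher, 25% of the 8 tested beside 10.4% of all genes, with a median log2 fold change of 0.02. PLAUR, the urokinase receptor gene, whose soluble product has been tied to APOL1 in kidney disease, went from 98.6 ± 7.68 to 59.5 ± 8.43 CPM (log2 fold change -0.74 ± 0.15, adjusted p = 0.0041). PHB2, a prohibitin gene of the mitochondrial inner membrane, went from 263 ± 24.1 to 338 ± 35.5 CPM (0.36 ± 0.10, adjusted p = 0.028). Neither passed without the replicate block or without replicate 3. The PHB2 call was also lost without replicate 1 and without any single library of the control or double knockdown groups. HPR, which encodes the partner of APOL1 in the trypanosome-lysing particle of serum, was too low to be tested.

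Neighbouring genes on chromosome 22 did not share one direction. Of 15 listed neighbours 11 were tested, and their median log2 fold change in the double knockdown was 0.15. MYH9, which lies next to APOL1, was at -0.39 ± 0.13 (adjusted p = 0.068). RBFOX2, an RNA splicing factor gene between APOL5 and APOL3, was at 0.30 (adjusted p = 0.16). Beyond MYH9, TXN2 was at 0.15 and EIF3D at 0.04, neither passing the test. FOXRED2 between them was higher at 0.60 ± 0.12 (adjusted p = 0.0050).

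On the far side of APOL6, RASD2 was at -0.55 (adjusted p = 0.059), MCM5 at 0.26, TOM1 at -0.45 and HMGXB4 at 0.19, and more distant on the other side IFT27 was at 0.31, and none of these 5 passed. HMOX1, the heme oxygenase gene on the side of APOL6, passed with HIF2A siRNA, and no neighbour passed with HIF1A siRNA (1 of 11 had an unadjusted p under 0.05, and DESeq2 called none). It stood at 132 ± 24.7 CPM with control siRNA, 122.8 ± 20.8 with HIF1A siRNA, 73.9 ± 9.30 with HIF2A siRNA and 66.8 ± 13.5 CPM in the double knockdown. Its log2 fold change was -0.84 ± 0.13 with HIF2A siRNA (adjusted p = 0.010) and -0.99 ± 0.13 in the double knockdown (adjusted p = 0.00013). FOXRED2 did not pass without the replicate block, without replicate 1 or without replicate 3, while the HMOX1 call in the double knockdown held in 20 of 20 alternatives.

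Known HIF target genes give the scale against which the APOL values can be set. Of 12 such genes, among them CA9, VEGFA, SLC2A1 and CCND1, 11 were lower with HIF1A siRNA, 3 with HIF2A siRNA and 12 in the double knockdown, where 1.41, 0.2 and 10.4% of all genes passed. Without the replicate block 8 of the 12 passed in the double knockdown, and CCND1 was not among them. SLC2A1, the glucose transporter GLUT1, and VEGFA had log2 fold changes of -2.06 and -1.89 in the double knockdown. The median log2 fold change of the 12 genes was -1.54 with HIF1A siRNA, -0.11 with HIF2A siRNA and -2.09 in the double knockdown. APOL1, at -0.995 in the double knockdown, moved less than this median. CCND1, the cyclin D1 gene, which was picked after its value was seen, was at -0.95. With HIF2A siRNA, CCND1 was at 329 ± 123 CPM against 501 ± 150 CPM with control siRNA (SD). APOL1 was at 241 ± 28.2 against 278 ± 11.3 CPM. Whether these genes differed in their response to HIF2A siRNA was not tested.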

How the data were processed

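RCC4 libraries (4 siRNA groups of 3, grouped by the labels) were analyzed from the count files. The authors used Trim Galore 0.3.3, HISAT2 2.05 on hg19, Picard 2.0.1 to keep uniquely mapped fragments and HTSeq 0.5.4p3 (intersection-strict), and deposited unnormalized counts for each gene symbol. The library kit kept strand, but the strand setting of the counting is not given in the sources used here. From these counts, edgeR 4.0.16 in R 4.3.3 was run with TMM factors (0.980 to 1.02), filterByExpr (minimum count 10, minimum total 15), the quasi-likelihood test in 1 fit of 12 libraries, and Benjamini-Hochberg adjustment over 13000 genes, with calls at 0.05. CPM used total counts scaled by TMM factors, and 0.5 CPM was added before logarithms. The 95% intervals came from the fit. Canonical transcript lengths were from GENCODE v44.

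Replicate number was a block because the study's methods pair conditions by biological replicate. Deviations from group means correlated at 0.0991 to 0.813 between same-numbered libraries (17 of 18 pairs over 0.1). Between different-numbered libraries of different groups they correlated at -0.724 to 0.527 (9 of 36 pairs over 0.1). Replicates differed by more than counting noise (chi-square per degree of freedom 16.9 to 128), so none were merged. Alternatives were DESeq2 1.42.0, its size factors, other filters, no block, each replicate number or library left out, and a fit of 9 libraries. The test was checked on counts simulated from its own fitted model, so this check does not show whether that model suits these libraries.

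Members and lists were chosen with earlier results of these data known. Named are the members, APOL5, HIF1A, EPAS1, tested neighbours, at most 5 called genes per list by smallest p, the 5 genes nearest to APOL1, markers of the line and, chosen after their values were seen, HPR and the HIF target genes shown. Promoter and protein sequences are not shown.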

Additional observations from a re-analysis of the deposited data

How the results depend on the processing

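The lower level of APOL1 in the double knockdown than with control siRNA passed in 20 of 20 alternatives, between -1.06 and -0.90 on the log2 scale, with adjusted p values from 7.0e-17 to 0.011. Its calls against HIF1A siRNA (-0.95 to -0.81) and HIF2A siRNA (-0.85 to -0.74) were lost only without the replicate block (-0.88 and -0.78), where members called numbered 1 against control siRNA and 0 against each single siRNA. The shares of all genes called without the block were 1.49% against control siRNA, 0.0615% against HIF1A siRNA and 0.685% against HIF2A siRNA. With DESeq2, 2 members passed against HIF2A siRNA, and 1, APOL1 at -0.67, for the interaction, which otherwise ran from -0.76 to -0.58 with no call. DESeq2 called 6.29% and 0.0846% of all genes in these comparisons. With libraries or replicate numbers left out, the members called numbered 1 to 3 against control siRNA, 1 to 2 against HIF1A siRNA and 1 to 2 against HIF2A siRNA. In the same settings the shares of all genes called ran from 2.44 to 17.6%, from 0.2 to 3.41% and from 1.31 to 5.24%. Over all genes, the calls against control siRNA went from 1348 to 194 without the block, 317 without replicate 3, 554 without replicate 1 and 2318 without replicate 2 of HIF2A siRNA.

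Directions reversed only with libraries left out and only for values that passed no test. With HIF1A siRNA against control siRNA, the ranges were -0.18 to 0.0065 for APOL1, -0.098 to 0.065 for APOL2, -0.17 to 0.19 for APOL3 and -0.023 to 0.12 for APOL6. APOL3 ran from -0.014 to 0.26 with HIF2A siRNA. Between HIF1A and HIF2A siRNA, APOL1 ran from -0.0026 to 0.17 and APOL3 from -0.31 to 0.098. The mean log2 change of APOL1 relative to APOL2 in the double knockdown ran from -0.49 to -0.30, relative to APOL3 from -0.77 to -0.54 and relative to APOL6 from -1.44 to -1.23. With HIF2A siRNA the change relative to APOL2 ran from -0.087 to 0.061, so its sign was not fixed. The cause of these changes was not tested. The recount of the gene lists under the alternatives was added after the data were seen. APOL4 and APOL5, with at most 4 counts in a library, were below the filter on low counts.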
